A study of Danio rerio with 9 samples.

Results

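The genes described here are 10 members of the zebrafish HoxA, HoxC and HoxD clusters, out of 31953 genes in the deposited count table: hoxa2b, hoxc3a, hoxd3a, hoxa9a, hoxa9b, hoxd9a, hoxa10b, hoxd10a, hoxc11a and hoxd11a. They were picked by name, and each was followed through 9 bulk RNA-seq libraries of sorted embryo cells, 3 per group. Cardiac crest libraries held mCherry-positive migratory neural crest cells, and non-crest libraries the mCherry-negative cells of the same tissue, dissected between the midbrain-hindbrain boundary and somite 6. Both came from embryos labelled as 16-somite, 17 h post-fertilisation, although the name of the deposited count table gives a later somite stage. Their line joins -4.9sox10:GAL4-UAS-cre, in which a sox10 fragment drives GAL4 and with it Cre, to the reporter transgene UAS:NfsB-mCherry, a fusion with nitroreductase, and to the heart marker transgene myl7:nucGFP. Trunk crest libraries held GFP-positive migratory crest of somites 7 to 16 at 24 h from Tg(-4.9sox10:eGFP), so axial level, age, fish line and reporter cannot be told apart between the 2 crest groups. No group carried a mutation named in the labels. The sort rests on sox10, which the ear placode also transcribes, and how many embryos each library drew on is not given in the sources used here.

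Hox genes encode homeodomain transcription factors that give cells their position along the head-to-tail axis. Within a cluster, genes at the 3' end (low paralogue numbers) are transcribed earlier and further forward than genes at the 5' end (high numbers), an arrangement called colinearity. Crest cells carry a Hox code that reflects the level of the neural tube they left, and Hox proteins bind DNA together with cofactors of the Pbx, Meis and Pknox (TALE) families.

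Only 6 of the 10 members could be measured. The deposited counts assign a read to a whole gene body, introns included, and a read that touches several gene bodies was assigned to none. All 4 HoxA members lie wholly inside the body of another gene and have 0 reads in the 6 libraries of the count table. On chromosome 16 (GRCz10), hoxa2b (21120854 to 21123364), hoxa9b (21109500 to 21111765) and hoxa10b (21104367 to 21107184) lie inside tax1bp1b (21000114 to 21127160), which is on the opposite strand. On chromosome 19, hoxa9a (20174479 to 20179194) lies inside a row named evx1 that spans 153241 bases. In zebrafish hoxa2b is among the genes that act in the identity of the second pharyngeal arch, and hoxa9a, hoxa9b and hoxa10b belong to the paralogue groups of the trunk. Their 0 counts say nothing about transcription, and of the 4782 genes wholly inside another gene 4782 had 0 reads.

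**Figure D1:**
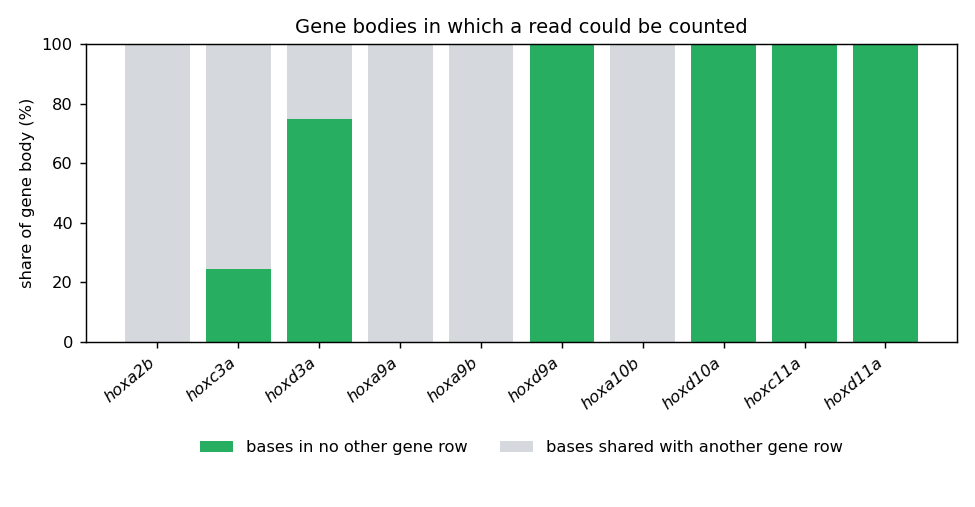
Share of each member's gene body (%, vertical axis) that no other gene row covers, for the 10 members in order of paralogue number. The 4 HoxA members have no such base, hoxc3a has 24.6% and hoxd3a 74.9%, and the other 4 bars are wholly countable.

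The 6 measured members differ in how much of the gene their counts cover. The rows of hoxd9a (ENSDARG00000059274, chromosome 9, 1963208 to 1964930), hoxd10a (ENSDARG00000057859, 1966910 to 1969274), hoxd11a (ENSDARG00000059267, 1975021 to 1977293) and hoxc11a (ENSDARG00000070351, chromosome 23, 35975646 to 35979339) share no base with another gene. For hoxd3a (ENSDARG00000059280, chromosome 9, 1936252 to 1958755) 74.9% of the body is its own, the rest being shared with 3 genes inside it, HOXD4 among them in the reference table's spelling. The hoxc3a row (ENSDARG00000070339, chromosome 23, 35988416 to 36050568) is a special case, with 24.6% of its 62153 bases free. It encloses 8 gene rows, among them those that the reference table calls HOXC9, HOXC8, HOXC6, HOXC5 and HOXC4. Its last countable base is at 36012331, so the final 38237 bases of the gene could yield no read. Counts under the name hoxc3a therefore come from the stretch around HOXC9 and HOXC8, and not from the 3' end of the gene.

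In the trunk crest the HoxD genes of groups 9 and 10 were abundant, while 2 of the 3 cardiac crest libraries held almost none of their reads. The gene hoxd9a, whose paralogue group acts in fins and limbs, had 2865, 3771 and 2367 reads in trunk crest replicates 1 to 3. Cardiac crest replicates 1 and 2 had 0 reads of it and replicate 3 had 250, and non-crest had 61, 12 and 1084. Trunk crest was thus high throughout, and in each 17 h group the third library stood far above the other 2.

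For hoxd10a, whose group specifies lumbar vertebrae in the mouse, trunk crest held 1366, 1400 and 974 reads. Cardiac crest held 0, 1 and 132 and non-crest 2, 0 and 978. The third non-crest library lay within the trunk crest range in raw reads, but it was also sequenced more deeply. On a scale of reads per 1000000 reads of the 20847 genes listed for both crest groups (RPM), it had 21.9 RPM where trunk crest had 38.8 to 50.6. That scale sets libraries of the 2 deposited tables side by side and was not used for a test.

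The group 11 genes, which act in sacral vertebrae and limbs in the mouse, had fewer reads than hoxd9a and hoxd10a in each trunk crest library. Reads of hoxd11a numbered 120, 149 and 39 in trunk crest, 1, 1 and 128 in cardiac crest and 104, 0 and 467 in non-crest. Those of hoxc11a numbered 83, 8 and 0 in trunk crest, 2, 0 and 34 in cardiac crest and 6, 4 and 367 in non-crest. For both genes the highest library of all 9 was non-crest replicate 3, and the 3 groups overlapped.

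Both hoxd3a and the hoxc3a row had reads in each library, those of the latter from the stretch around HOXC9 and HOXC8. Cardiac crest had 1865, 1245 and 1644 reads of hoxd3a, non-crest 1245, 1760 and 277, and trunk crest 2073, 2124 and 1948. Group 3 genes pattern the hindbrain and the posterior arches. The single low value, 277, is again that of non-crest replicate 3, which was high for the posterior genes. Of the hoxc3a row, cardiac crest had 164, 473 and 806 reads. There were 1022, 527 and 1039 in non-crest and 1943, 1352 and 1326 in trunk crest, whose lowest library stood above each of the others.

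**Figure D2:**
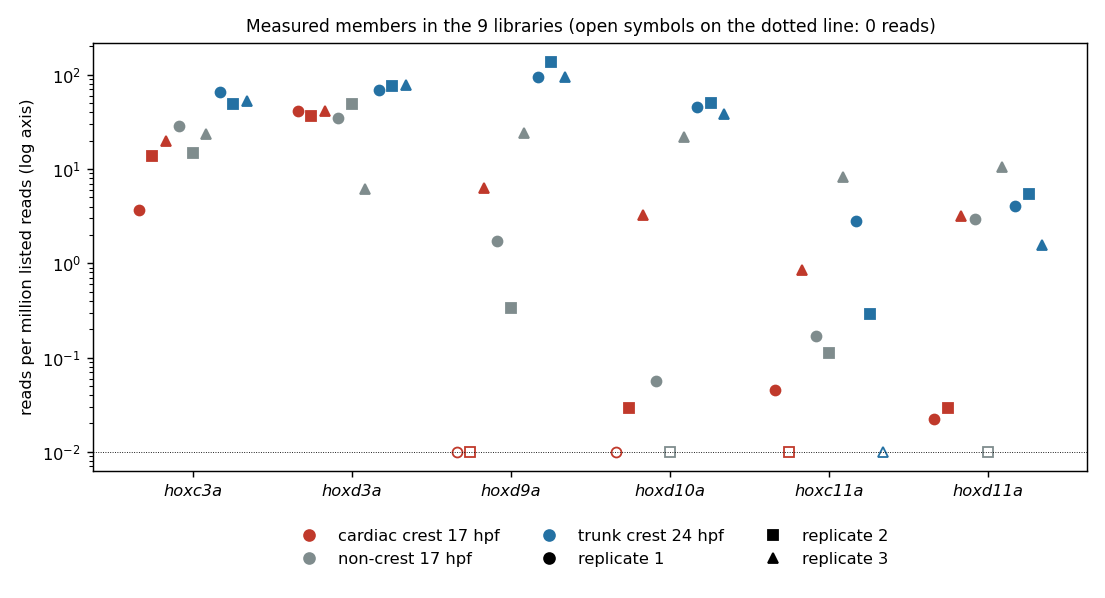
Level in RPM (log axis) of the 6 measured members in 9 libraries, coloured by group, with symbols for replicates and open symbols for 0 reads. Trunk crest lies above cardiac crest in hoxc3a, hoxd3a, hoxd9a and hoxd10a, and for hoxd9a to hoxd11a the triangles of replicate 3 lie above the other 17 h libraries.

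Ordered by mean RPM, hoxd9a ran from trunk crest (109 ± 23.8, SD, n = 3) through non-crest (8.79 ± 13.5) to cardiac crest (2.08 ± 3.60), and hoxd10a from 45.1 ± 5.96 through 7.33 ± 12.7 to 1.11 ± 1.89. The hoxc3a row followed the same order, with 55.6 ± 8.48, 22.3 ± 7.10 and 12.6 ± 8.30. For hoxd3a the order was trunk crest (74.6 ± 4.45), cardiac crest (39.8 ± 2.81) and non-crest (30.3 ± 22.0). In each of these 4 orders only trunk crest stood clear of its neighbour, since the lower 2 groups overlapped. Group 11 had non-crest first, at 4.47 ± 5.41 for hoxd11a and 2.84 ± 4.67 for hoxc11a, and no neighbours in those orders differed beyond their spread. Where a library had 0 reads, the 3 reads that a count of 0 allows correspond to 0.0672 to 0.0881 CPM (reads per 1000000 of the library total) at 17 h and, for hoxc11a in trunk crest replicate 3, to 0.119 RPM, for counting error only. In bulk libraries, fewer cells with a transcript and less of it per cell cannot be told apart.

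Against trunk crest, 4 of the 6 measured members were lower in cardiac crest, 0 were higher and 2 did not pass. Among the lower ones was the hoxc3a row, whose reads come from the stretch around HOXC9 and HOXC8. The comparison sets side by side crest of different axial levels, which also differed in age, fish line and reporter. The deposited values are reads divided by a size factor of each library. They were tested with limma after adding 1 and taking log2, and an adjusted p below 0.05 counted as a call. Of all 20847 genes, 12.5% were called lower in cardiac crest and 10.7% higher. The median log2 fold change of the 6 was -3.47, beside 0.14 over all genes.

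The widest gap belonged to hoxd9a, with 0, 0 and 180 scaled reads in cardiac crest and 3390.0, 5030.5 and 3409.9 in trunk crest. Its log2 fold change was -9.42 ± 1.82 (SE, limma adjusted p = 0.00887), a value that the 0 counts tie to the pseudocount. Replicate 3 held 100% of the cardiac crest reads. Set against the 3 reads that a count of 0 allows over replicates 1 and 2 together, hoxd9a was at least 2858-fold lower there than in trunk crest, in RPM. The call depended on the test. A count model, edgeR's quasi-likelihood test on the recovered reads, gave -6.03 ± 2.03 with an adjusted p of 0.0879 (13.3% of all genes were lower by that test), and the authors' deposited table lists 6.04 ± 2.79 for trunk over cardiac crest with an adjusted p of 0.0904.

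Next came hoxd10a, at 0, 0.769 and 95.0 scaled reads in cardiac crest and 1616.3, 1867.6 and 1403.1 in trunk crest. The log2 fold change was -8.19 ± 1.46 (limma adjusted p = 0.00459), and -5.66 by edgeR (adjusted p = 0.0468). Groups did not overlap, and the highest cardiac crest library was again replicate 3. That library held 99.1% of the cardiac crest reads of hoxd10a and 100% of those of hoxd9a, so leaving it out could only widen the gap. Without it limma gave -10.25 for hoxd10a (adjusted p = 5.98e-05) and -11.92 for hoxd9a (adjusted p = 1.46e-05). With cardiac crest then at or near 0 reads, the size of both values is tied to the pseudocount. Leaving out any other single library gave limma adjusted p of 0.0178 to 0.0315 for hoxd10a and 0.0273 to 0.0468 for hoxd9a. The authors' deposited table lists an adjusted p of 0.0292 for hoxd10a.

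For hoxd3a the difference was smaller and even across libraries. Cardiac crest had 1306.1, 957.9 and 1183.6 scaled reads and trunk crest 2452.9, 2833.4 and 2806.3. That is a log2 fold change of -1.24 ± 0.220 (limma adjusted p = 0.00449), and leaving out any single library kept it between -1.34 and -1.11. The hoxc3a row, at 115, 364 and 580 in cardiac crest and 2299.1, 1803.6 and 1910.2 in trunk crest, fell by 2.78 ± 0.525 on the log2 scale (limma adjusted p = 0.00614). In these 4 members the groups did not overlap, as was so for 19.9% of all genes in the same direction and 21.5% in the other.

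Of the group 11 members, hoxd11a stood at 0.700, 0.769 and 92.2 scaled reads in cardiac crest and 142, 199 and 56.2 in trunk crest. Its log2 fold change of -4.17 ± 1.45 missed the threshold (limma adjusted p = 0.0689). With a pseudocount of 8 it was -2.68. On the recovered reads edgeR gave -2.08 ± 1.48 (adjusted p = 0.342), and the authors' deposited table lists 2.08 ± 1.38 for trunk over cardiac crest (adjusted p = 0.27). Without cardiac crest replicate 3, which held 98.4% of that group's hoxd11a reads, it was -6.09 ± 0.775 (limma adjusted p = 0.00202). Each cardiac crest library left had 1 read of hoxd11a, so the size of that value is tied to the pseudocount. In that fit 5 of the 6 members were called lower, where 13.1% of all genes were. Leaving out any other single library gave no call for hoxd11a, with limma adjusted p of 0.091 to 0.229. For hoxc11a the value was -1.41 ± 1.76 (limma adjusted p = 0.605), with trunk crest at 98.2, 10.7 and 0 scaled reads.

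**Figure D3:**
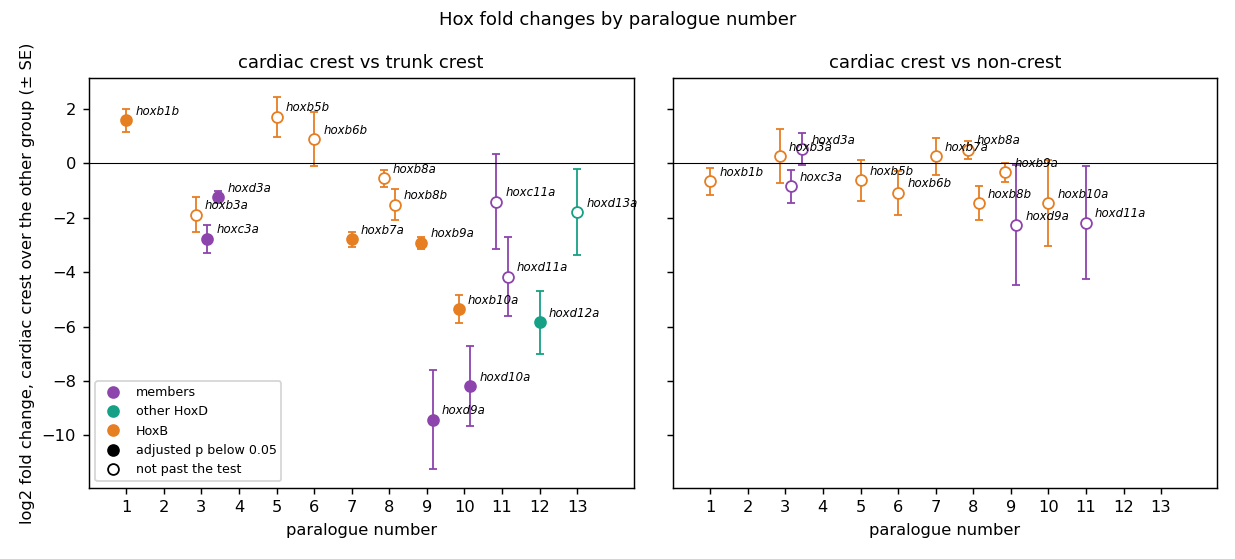
Log2 fold change of cardiac crest over trunk crest (left) and over non-crest (right) with SE, by paralogue number, for members, other HoxD and HoxB genes; filled symbols passed an adjusted p of 0.05. Against trunk crest hoxd9a and hoxd10a lie lowest, at -9.42 and -8.19, and against non-crest each symbol is open. The hoxc3a symbol stands for reads from the stretch around HOXC9 and HOXC8.

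No member was called when cardiac crest was set against non-crest. The comparison asks which transcripts mark crest apart from its surroundings, and edgeR's quasi-likelihood test on the raw counts was used. The filter on low counts left 4 of the 6 measured members, dropping hoxd10a and hoxc11a. Of the 4 tested, 0 passed after adjustment and 0 had an unadjusted p below 0.05, where edgeR called 1.50% of all 19648 genes. DESeq2 also called 0 of the 4, and 5.34% of all genes. Without the filter all 6 were tested and again 0 passed, beside 1.14% of all genes. In all 6 the groups overlapped, while 8.26% of all genes lay wholly lower in cardiac crest and 8.76% wholly higher.

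The values behind this are spread by replicate 3. In CPM, hoxd9a was at 0, 0 and 6.20 in cardiac crest and at 1.71, 0.330 and 24.0 in non-crest, a log2 fold change of -2.27 ± 2.22 (edgeR adjusted p = 0.787). Without non-crest replicate 3 its sign turned, to 1.09 (edgeR adjusted p = 0.877). It was -11.61 without cardiac crest replicate 3 (edgeR adjusted p = 0.227) and -8.22 without replicate 3 of both groups (edgeR adjusted p = 0.0904). In both fits each cardiac crest library left had 0 reads of hoxd9a. The size of these 2 changes is therefore tied to the small count that edgeR adds, and is not a measured fold. The hoxd11a value was -2.19 ± 2.08 (edgeR adjusted p = 0.781), with 2.91, 0 and 10.3 CPM in non-crest. It was -7.44 without cardiac crest replicate 3 (edgeR adjusted p = 0.348), a size that rests on 1 read in each cardiac crest library left. Leaving out non-crest replicate 3 instead gave -0.36 (edgeR adjusted p = 0.958). For hoxd3a, cardiac crest stood at 39.7 ± 2.76 CPM and non-crest at 29.8 ± 21.6, a change of 0.51 ± 0.585 on the log2 scale (edgeR adjusted p = 0.825). The wide non-crest spread comes from 1 library, replicate 3 at 6.13 CPM beside 34.9 and 48.4. The hoxc3a row stood at 12.5 ± 8.24 and 22.0 ± 7.12 CPM (-0.85 ± 0.598, edgeR adjusted p = 0.691).

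How far the third libraries stood apart can be read from the share of a group's depth-scaled reads that each held. Cardiac crest replicate 3 held 100% of the group's hoxd9a reads, 99.1% of hoxd10a, 98.4% of hoxd11a and 95.0% of hoxc11a. For hoxd3a it held 34.4%, next to a median of 33.2% over the 16301 genes with at least 100 cardiac crest reads. Only 2.47% of those genes had more than 75% of their reads in that library. With 36 cardiac crest reads, hoxc11a is not among those genes. Non-crest replicate 3 held 92.2%, 99.7%, 78.1% and 96.7% of the same 4 posterior genes, but 6.85% of hoxd3a. More than 75% of the reads lay in that library for 1.82% of the 17057 genes that had at least 100 non-crest reads. In trunk crest, replicate 3 held 28.8% of hoxd9a and 28.7% of hoxd10a.

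Ratios within a library do not depend on its depth, and they too set the third 17 h libraries apart from the others of their group. Of the reads of hoxd9a and hoxd3a together, hoxd9a took 58.0% (exact 95% binomial interval 56.6 to 59.4), 64.0% (62.7 to 65.2) and 54.9% (53.4 to 56.3) in trunk crest. It took 0% in cardiac crest replicates 1 and 2, with upper limits of 0.198% and 0.296%, and 13.2% (11.7 to 14.8) in replicate 3. Non-crest had 4.67% and 0.677% in replicates 1 and 2 and 79.6% (77.4 to 81.8) in replicate 3, above each trunk crest library. By level the order was the reverse, with hoxd9a at 24.3 RPM in that library and at 94.2 to 136 RPM in trunk crest. The high share there goes with few hoxd3a reads, 277 beside 1245 and 1760 in the other non-crest libraries. The intervals cover counting error only.

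The decline along the posterior HoxD genes was steeper in trunk crest than in the third 17 h libraries. Of hoxd9a and hoxd11a reads, hoxd11a took 4.02%, 3.80% and 1.62% in trunk crest, with upper limits no higher than 4.79%. In cardiac crest replicate 3 it took 33.9% (29.1 to 38.9) and in non-crest replicate 3 30.1% (27.8 to 32.5). Non-crest replicate 1 had 63.0% (55.2 to 70.4), with 104 reads of hoxd11a and 61 of hoxd9a. These are single libraries, so the difference was described and not tested. For hoxd10a against hoxd9a the shares lay closer, at 27.1% to 32.3% in trunk crest, 34.6% in cardiac crest replicate 3 and 47.4% in non-crest replicate 3.

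**Figure D4:**
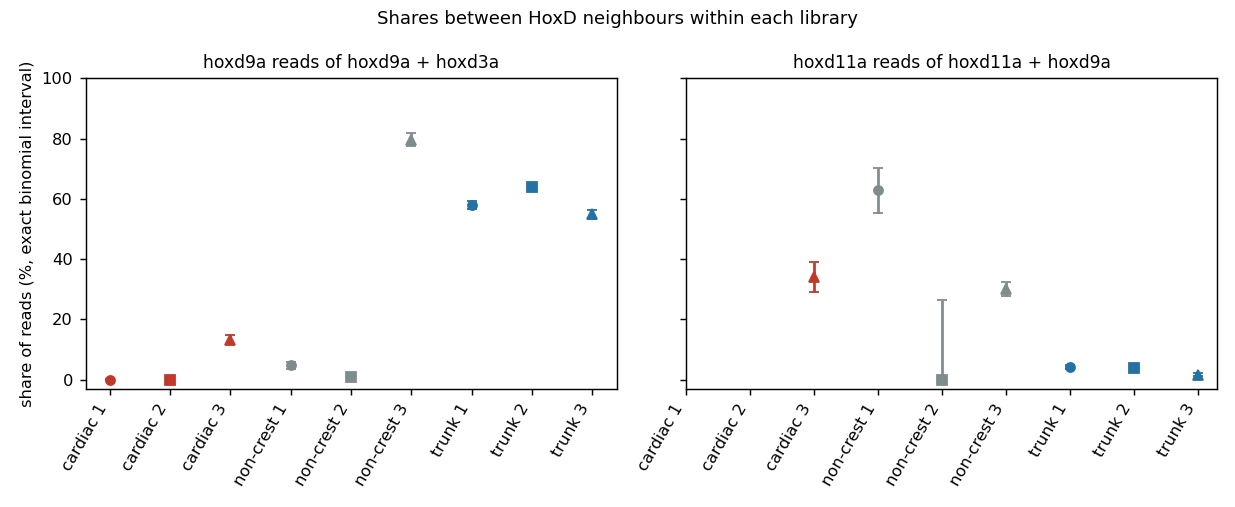
Share of reads (%, with exact 95% binomial intervals) taken by hoxd9a of hoxd9a and hoxd3a (left) and by hoxd11a of hoxd11a and hoxd9a (right) in each library with at least 10 such reads. Trunk crest runs from 54.9% to 64.0% on the left and stays at or under 4.02% on the right, where replicate 3 of cardiac crest and non-crest stand at 33.9% and 30.1%.

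Per kilobase of countable sequence, levels can be set between genes only roughly. Countable bases include introns, so the value also depends on how much of a gene is intron. The divisor was 16856 bases for hoxd3a and 1723 for hoxd9a. In trunk crest hoxd9a stood at 63.2 ± 13.8 RPM per kb (SD, n = 3), hoxd10a at 19.1 ± 2.52, hoxd11a at 1.61 ± 0.855 and hoxd12a, the next gene towards the 5' end, at 1.90 ± 0.511. Non-crest replicate 3 fell more evenly, from 14.1 for hoxd9a to 9.28, 4.61 and 1.47 for the next 3 genes. Cardiac crest replicate 3 had 3.62, 1.39, 1.41 and 0.287. The last gene, hoxd13a, had 31 reads in trunk crest replicate 2, 2 in non-crest replicate 1 and 0 in the other 7 libraries.

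**Figure D5:**
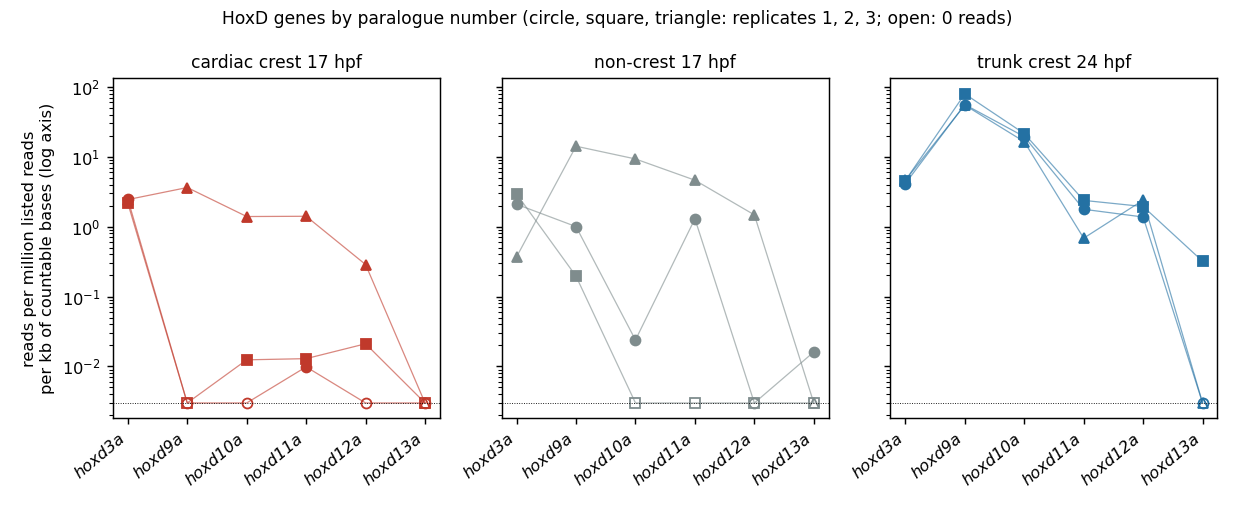
Level of 6 HoxD genes (RPM per kb of countable bases, log axis) in order of paralogue number, 1 panel per group and 1 line per library, with open symbols for 0 reads. The trunk crest lines peak at hoxd9a, between 54.7 and 79.1, and in each 17 h panel hoxd10a and hoxd12a are highest in replicate 3. Countable bases include introns and are most numerous in hoxd3a, so heights of different genes compare only roughly.

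Markers of other cell types also differed between these libraries. Summed over 10 of 12 listed somite and muscle genes, cardiac crest replicates 1 and 2 had 165 and 155 CPM and replicate 3 had 10300.0, next to 8840.0 to 11700.0 in non-crest. None of these 10 genes was at 0 in any library, and trunk crest held 5580.0 to 20700.0 RPM of them. Most of the replicate 3 sum was actc1b, at 4.54, 13.8 and 7950.0 CPM in cardiac crest. The myogenic factor gene myod1 had 0.470, 0.0294 and 55.9 CPM in cardiac crest. Not all of the list rose in cardiac crest replicate 3. There tbx6 (0.149 CPM, against 0.425 and 0.969) and tnni2a.4 (0.0496, against 0.0895 and 0.0587) were lowest. The gene meox1 differed little (137, against 119 and 90.0). In non-crest replicate 3 the paraxial mesoderm genes tbx6 (25.1 CPM, against 0.224 and 1.18) and tcf15 (290 CPM, against 45.2 and 17.9) were high. Of the muscle genes in that list, actc1b, mylpfa and tnni2a.4 were lowest there among non-crest libraries, as was the list sum (8840.0). They stood at 5840.0 CPM against 8550.0 and 8980.0, at 408 against 1170.0 and 612, and at 0.0221 against 8.07 and 6.82. Other muscle genes did not follow. Both desma (99.6 against 81.5 and 44.5) and myod1 (129 against 11.4 and 27.4) were highest there, and acta1a and ttn.2 lay between. The heart gene myl7 was at 0.0885 CPM in non-crest replicate 3, against 42.3 and 53.3, and nkx2.5 at 0. In the same list hand2 was not low there, at 38.6 CPM against 46.3 and 21.7. The 5 matched lateral plate and heart genes of 6 summed to 53.7 CPM there, against 141 and 127. The 6 matched neural tube genes of 8 summed to 312 CPM in that library, against 1060.0 and 1010.0, and to 224, 272 and 622 in cardiac crest. Of these genes elavl3 was lowest in cardiac crest replicate 3 (48.8 CPM, against 63.1 and 86.8), and the others were highest there. The 4 matched crest genes of 6 summed to 2020.0, 1710.0 and 1170.0 CPM in cardiac crest and 225 to 262 in non-crest. In cardiac crest replicate 3 twist1a (324 CPM, against 979 and 715) and sox10 (244, against 363 and 445) were lowest. There tfap2a (434, against 419 and 418) and ets1 (166, against 262 and 129) were not. The sum also hides a difference in non-crest replicate 3. There sox10 (8.92 CPM, against 27.6 and 26.8), tfap2a (7.99, against 61.8 and 63.1) and ets1 (8.72, against 28.0 and 24.0) were lowest. By contrast twist1a was highest there (215, against 145 and 111). The part of these cells in the Hox values was not tested.

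The HoxB genes, on chromosomes 3 and 12, gave a point of comparison. Of 15 listed HoxB genes 9 were tested, with a median log2 fold change of -1.53 against trunk crest. Lower in cardiac crest were 3 (12.5% of all genes were), 1 was higher (10.7% were) and 5 did not pass. The 3 were hoxb10a (-5.37 ± 0.510, limma adjusted p = 0.000212), hoxb9a (-2.92 ± 0.217) and hoxb7a (-2.79 ± 0.272), and the anterior hoxb1b was higher (1.58 ± 0.420, limma adjusted p = 0.0267). Without cardiac crest replicate 3, 5 were lower and 1 higher, where 13.1% of all genes were lower and 8.97% higher. Replicate 3 held 63.4% of the cardiac crest reads of hoxb10a, and 97.6% of those in non-crest. For hoxb8a, which was not called (-0.56 ± 0.298, limma adjusted p = 0.208), it held 44.2% and 22.3%. Against non-crest 0 of 9 HoxB genes passed by edgeR or DESeq2 (1 had an unadjusted p below 0.05 by each), and without replicate 3 of both groups 2 were lower in cardiac crest (3.05% of all genes were), hoxb5b and hoxb8b, which were named after their values were seen.

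Outside the members, 24 further HoxA, HoxC and HoxD genes were listed, 6 were matched by symbol and 2 had reads. The matched genes without reads, hoxa13a, hoxa13b, hoxc1a and hoxc11b, lie wholly inside another gene and were unmeasured. Some unmatched ones have rows under upper-case names, such as HOXC9 and HOXD4, also wholly inside another gene. Of the 2 with reads, hoxd12a was lower in cardiac crest than in trunk crest (12.3 ± 19.3 and 288 ± 80.2 scaled reads, -5.84 ± 1.16, limma adjusted p = 0.00756), and hoxd13a was not called (limma adjusted p = 0.455). Replicate 3 held 93.1% of the cardiac crest reads of hoxd12a. By limma the HoxD genes of groups 9, 10 and 12 thus passed, and that of group 11 did not in the full set. By edgeR on recovered reads hoxd9a did not pass (adjusted p = 0.0879), while hoxd10a (adjusted p = 0.0468) and hoxd12a (adjusted p = 0.0358) did.

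Genes for TALE cofactors moved mostly the other way. By limma, 10.7% of all genes were higher in cardiac crest than in trunk crest and 12.5% were lower. Of the 13 TALE genes, 7 were higher, 1 was lower and 5 did not pass, with a median log2 fold change of 1.03. The higher ones included meis1a (1785.0 ± 86.9 and 106 ± 79.8 scaled reads, 4.49 ± 0.665, limma adjusted p = 0.00186), meis2b (3.19 ± 0.366), meis2a (2.87 ± 0.430) and pbx1b (2.73 ± 0.553). The lower one was pknox1.2, at 225 ± 31.9 and 2592.8 ± 132 scaled reads (-3.53 ± 0.248, limma adjusted p = 4.7e-05). Of those not called, pbx2 stood at 0.26 ± 0.262, meis1b at 0.66 ± 0.245 and pknox1.1 at -0.20 ± 0.315. Against non-crest 0 of 13 passed by edgeR, with or without replicate 3 of both groups (4 had an unadjusted p below 0.05 in the full set). There DESeq2 called 1 higher and 2 lower, and 5.34% of all genes in either direction. The most abundant, meis3, stood at 278 ± 12.6 and 287 ± 41.2 CPM.

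Regulators that act upstream of Hox transcription were also mostly higher. Over all genes, 10.7% were higher in cardiac crest than in trunk crest and 12.5% lower. Of 16 matched genes of 20, 11 were higher and 0 lower, with a median log2 fold change of 2.59. They included the hindbrain segment genes mafba (9.77 ± 0.983, limma adjusted p = 0.000282) and egr2b (6.24 ± 0.931), and cdx4, a caudal gene that activates posterior Hox genes. Levels of cdx4 were 225, 942 and 1461.5 scaled reads in cardiac crest and 42.6, 20.01 and 0 in trunk crest (6.12 ± 1.32, limma adjusted p = 0.0113). Retinoic acid enzyme genes aldh1a2, for synthesis, and cyp26c1, for breakdown, stood at 4.15 ± 1.11 and 5.08 ± 0.754, 36.9% of the latter being shared with another gene. Levels of cyp26c1 were low, at 49.7, 40.8 and 41.8 scaled reads in cardiac crest and 0, 1.33 and 0 in trunk crest. The size of its change is therefore tied to the pseudocount. The call for aldh1a2 (limma adjusted p = 0.0277) was lost by edgeR on recovered reads (2.94, adjusted p = 0.0958) and without cardiac crest replicate 3 (3.81, limma adjusted p = 0.0824). Another breakdown gene, cyp26a1, was also highest in the third library of each 17 h group, with 0.0672, 0.176 and 12.5 CPM in cardiac crest and 45.0, 17.0 and 99.5 in non-crest. Unlike hoxd9a and hoxd10a, it was higher in each non-crest library than in cardiac crest replicate 3. Against trunk crest it was not called (-3.14 ± 1.69, limma adjusted p = 0.215, and -5.30 with 0.0128 without cardiac crest replicate 3). Against non-crest 0 of the 16 passed by edgeR (5 had an unadjusted p below 0.05), and DESeq2 called 2 lower (5.34% of all genes in either direction). Without replicate 3 of both groups 2 were lower in cardiac crest by edgeR (3.05% of all genes were). These were cyp26a1 and cyp26b1, the latter named after its values were seen.

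The genes most like the 2 most abundant members across the 6 crest libraries were found among 13350 non-Hox genes. Likeness was the root mean square distance between log2(value + 1) profiles, each centred on its own mean. For hoxd9a these were xkr8.2 (0.592 log2 units), trim63a (0.849), a muscle ubiquitin ligase gene, and myl1 (1.29), a fast muscle myosin light chain gene. In trim63a, cardiac crest had 1.40, 0 and 1328.0 scaled reads. For hoxd3a they were fnta (0.0327), encoding a farnesyltransferase subunit, and the mitochondrial enzyme genes idh3g (0.0598) and ndufa10 (0.0607). The 6 libraries form 2 groups, so such profiles share the group difference.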

How the data were processed

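The count table held raw read counts per gene for cardiac crest and non-crest, deposited by the authors and made with featureCounts 1.5.1 on Ensembl 80 gene models of GRCz10, with no strand option and no option for reads in several genes, per the file headers. Bowtie2 and DESeq are named without versions, per the submitters' processing notes. The second table held a signal for cardiac and trunk crest, which the authors made by dividing counts by a size factor, with their log2 fold changes, scores, p-values and −log10 values. Dividing each library by its smallest value above 0 gave whole reads for 100% of values (tolerance 0.02). Libraries held 34062539 to 45172404 reads in the count table, and trunk crest 25128422 to 29842884 over the 20847 genes listed.

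edgeR 4.0.16 (quasi-likelihood, robust, TMM, default filter), limma 3.58.1 (trend, robust, pseudocount 1) and DESeq2 1.42.0 were run in R 4.3.3 over all genes, with Benjamini-Hochberg adjustment. The edgeR and limma fits were also run on simulated data with the same dispersion for all genes. Spread between replicates like that of hoxd9a, hoxd10a and hoxd11a was not simulated, so that run does not bear on their calls. Trunk crest and non-crest were not tested against each other, being in separate tables. For edgeR, the SE was taken as the absolute log2 fold change over the square root of F. All members were named, with up to 5 called and 3 uncalled genes per list and the 3 nearest profiles of 2 members. Members and lists were chosen with earlier results of these data known. Replicates are separate libraries, but whether their embryos were pooled separately is not given in the sources used here. The p-values therefore reflect library-to-library spread, which may be technical. SMART-Seq reads carry no molecular identifiers. Alternatives covered scaling, filter, pseudocount, test, replicate block and left-out libraries.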

Additional observations from a re-analysis of the deposited data

How the results depend on the processing

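The count of members called lower than trunk crest was 4 in the main test and between 4 and 5 when any 1 library was left out. By edgeR on recovered reads, whose filter dropped hoxc11a, it was 3 of 5 tested, and 13.3% of all genes were lower. By that test without cardiac crest replicate 3 it was 5 of 5 tested, where again 13.3% of all genes were lower. That last alternative was chosen after seeing the data. Against non-crest the count was 0 under each of the 11 alternatives run, of 3 to 6 members tested. Signs turned for hoxd3a against non-crest without replicate 3 of both groups (-0.01), for hoxd9a against non-crest without non-crest replicate 3 (1.09, between -11.61 and 1.09 with 1 library left out) and for hoxc11a against trunk crest without trunk crest replicate 1 (0.21, between -3.11 and 0.21). None of these was called, and the cause was not tested. Genes called against non-crest numbered 294 in the main test, 93 to 361 when 1 library was left out (93 without cardiac crest replicate 2, 102 without replicate 1, 171 and 163 without non-crest replicates 1 and 2), 752 without replicate 3 of both groups and 1050 with DESeq2. Against trunk crest they numbered 4829, and 3205 to 4591 with 1 library left out, the lowest without cardiac crest replicate 2. Upper-quartile rescaling moved the median log2 fold change from 0.14 to 0.36 and the split from 2233 higher and 2596 lower to 3053 and 2085, with the same 4 lower members by count. Replicate numbers were not taken to pair the libraries, since no label says what a number shares and deviations of same-numbered cardiac crest and non-crest libraries correlated at 0.0299, 0.0528 and 0.160. Cardiac crest replicate 2 correlated best with non-crest replicate 1 (0.178). The sample descriptions do give cardiac crest and non-crest libraries of the same replicate number consecutive library numbers, so a pairing remains possible. A fit with the replicate number as a block called 284 genes and 0 members against non-crest, and 4273 genes and 4 members against trunk crest. Against non-crest it moved hoxd9a from -2.27 to -4.23, and its unadjusted edgeR p from 0.336 to 0.0126 (edgeR adjusted p = 0.26). Members at a few reads per library are limited by depth.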

Other observations

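An unnamed gene next to hoxc11a, ENSDARG00000096956 (chromosome 23, 35982622 to 35989431, GRCz10, minus strand), was noticed after its values were seen. It shares 64.4% of its bases with other genes. Its row runs into the start of hoxc3a and wholly encloses that of HOXC10 (35984726 to 35988092), both on the plus strand. It had 500 reads in non-crest replicate 3, 5 and 0 in the other non-crest libraries, and 1, 0 and 0 in cardiac crest. In trunk crest it had 38, 2 and 65. As for hoxc11a, with 367 reads, the highest of the 9 libraries was non-crest replicate 3. Counting had no strand option, so the reads of this row cannot be assigned to either strand.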
